A study of Mus musculus with 12 samples.

Results

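The calponin and transgelin genes of the mouse were followed through serum stimulation and Lap2 depletion. They are Cnn1, Cnn2 and Cnn3 (the calponins) and Tagln and Tagln2 (the transgelins). They were chosen by name and matched by symbol to 5 of the 49671 Ensembl gene identifiers of the count files. The members, and the gene lists set beside them, were chosen with earlier results of these data known. The shares of all tested genes given beside their calls are therefore a description and not an independent test. The RNA came from NIH 3T3, a fibroblast line of mouse embryo origin that grows without limit, and was sequenced as 4 groups with 3 libraries each. Control siRNA treated cells (a non-targeting siRNA) and Lap2-depleted cells (an siRNA against every Lap2 isoform, which all come from the Tmpo gene) were serum-starved in 0.3% FBS, or starved and then stimulated with 15% FBS for 45 min. All groups were thus transfected and starved, and none was left untransfected. The depletion was transient and not a deletion, and Tmpo RNA remained in every depleted library. What the replicate numbers stand for was not given in the sources used here, and p-values therefore measure the spread between these samples, which may be technical.

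Calponins and transgelins are small actin-binding proteins that share an amino-terminal calponin homology (CH) domain followed by calponin-like repeats, of which the transgelins carry a single copy. Calponins bind actin filaments and inhibit the ATPase of actin-activated myosin, and transgelins bundle and stabilize actin filaments. Cnn1 and Tagln are classical markers of differentiated smooth muscle that contain CArG boxes, the DNA element bound by serum response factor (SRF), in their regulatory regions, whereas Cnn2, Cnn3 and Tagln2 are found in many non-muscle cells.

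On the mm10 (GRCm38) assembly of GENCODE M21, Cnn1 lies at chr9:22099216-22109630 on the plus strand, Cnn2 at chr10:79988584-79996062 on the plus strand and Cnn3 at chr3:121426497-121458207 on the plus strand. Tagln lies at chr9:45929619-45936058 on the minus strand and Tagln2 at chr1:172500047-172507380 on the plus strand. The longest annotated coding sequences encode proteins of 297 residues for Cnn1, 305 for Cnn2, 330 for Cnn3, 201 for Tagln and 199 for Tagln2. The calponins were 63.8% to 70.1% identical to each other over their aligned residues, and the transgelins 67.8% identical over 199 residues. Between a calponin and a transgelin the identity was 43.0% to 46.0%. Despite this similarity no 31-base word was shared by the transcripts of any 2 of the 5 genes (0 words in each pair), so reads that match 1 member over such a word do not match another.

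The RefSeq promoter table for GRCm38.p6 held 4 of the 5 genes (Cnn1, Cnn2, Cnn3 and Tagln2; Tagln was not matched), each as 300 bases from 250 before to 50 after the start site. The CArG box was searched by its name as the 10-letter SRF consensus, which is the same on both strands. An exact box was found in 1 of these 4 windows, that of Cnn2, and in 1.63% of all 32851 promoters in the table. With 1 mismatch allowed, the box was found in 21.1% of all promoters, and in no further member (Cnn1, Cnn3 and Tagln2 had 0). Sequence outside the windows was not searched, so the absence holds for these 300 bases only. The Tagln2 window, chr1:172499996-172500295, begins only shortly before the GENCODE start of Tagln2 at 172500047. The Cnn2 window is printed because it is the one with the box, marked in capitals, and the Cnn1 window for comparison because Cnn1 is the smooth muscle calponin. The Cnn2 window lies at chr10:79988350-79988649 and the Cnn1 window at chr9:22099003-22099302, both on the plus strand. The box starts 56 bases before the Cnn2 start site of the RefSeq promoter table, which differs from the GENCODE start given above.
Cnn2: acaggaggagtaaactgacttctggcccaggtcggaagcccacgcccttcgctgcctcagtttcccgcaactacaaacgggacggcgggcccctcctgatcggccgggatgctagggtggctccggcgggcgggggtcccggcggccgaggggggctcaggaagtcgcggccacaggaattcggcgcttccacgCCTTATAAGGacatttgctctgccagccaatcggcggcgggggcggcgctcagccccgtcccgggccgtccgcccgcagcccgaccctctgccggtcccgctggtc
Cnn1: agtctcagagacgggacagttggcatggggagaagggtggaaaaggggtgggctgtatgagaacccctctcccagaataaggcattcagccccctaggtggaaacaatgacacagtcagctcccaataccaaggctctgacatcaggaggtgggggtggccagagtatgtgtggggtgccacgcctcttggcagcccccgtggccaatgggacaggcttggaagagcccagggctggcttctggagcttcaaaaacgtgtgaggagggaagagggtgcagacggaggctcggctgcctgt

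The 12 libraries held 18026298 to 26265253 counts each, and the 18668 genes that exceeded 1 count in 3 or more libraries were tested, all 5 members among them. No 2 replicates were the same library (0 of 12 replicate pairs held identical counts, and the chi-square per degree of freedom between replicates was 2.57 to 20.2). Tmpo, the targeted gene, had 2775, 2805 and 2885 normalized counts with control siRNA in 0.3% FBS, and 981.5, 1175.5 and 1093 in the starved depleted libraries. After stimulation it had 3263.5, 3243 and 3019 normalized counts in control and 767, 745 and 607 in depleted libraries, so that the depleted libraries lay below the control libraries in both serum conditions. The depletion of Tmpo RNA was deeper in 15% FBS (log2FC -2.17) than in 0.3% FBS (-1.38), a difference of -0.79 by the edgeR test (adjusted p 3.0e-06). The serum responses of the siRNAs are therefore not compared at a fixed level of Tmpo RNA depletion. These RNA data do not give the level of Lap2 protein in either serum condition. All 10 fibroblast markers reached 1 CPM (a count scaled to the library total) in every library, with a summed level of 37531 to 42746 CPM in control siRNA treated cells and 27415 to 33271 CPM in Lap2-depleted cells. The smooth muscle markers were not uniformly low. Myh11 had 3 to 13 reads, Des 2 to 15 and Myocd, the smooth muscle coactivator of SRF, 0 to 2 reads per library. The other markers of this list, Smtn, Lmod1 and Synpo2, reached 1 CPM in every library. Their lowest levels were 68.42, 5.569 and 6.866 CPM. Summed epithelial markers stayed at or below 1.15 CPM, endothelial markers at or below 2.61 CPM, skeletal muscle markers at or below 0.904 CPM and leukocyte markers at or below 4.49 CPM, and the markers of neurons and glia summed to 9.50 to 17.8 CPM. In bulk RNA, fewer cells of a kind and less RNA per cell cannot be told apart, which applies to the lower fibroblast marker level of Lap2-depleted cells and to each difference between groups given here. The part of these markers in the results was not tested.

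All 5 genes rose on serum stimulation of control siRNA treated cells. The rise was 7.69-fold for Tagln and 5.32-fold for Cnn1, the smooth muscle members, and 2.91-fold for Tagln2, 2.18-fold for Cnn2 and 1.54-fold for Cnn3, the non-muscle members. The 5 genes called higher compare with 15.6% of all tested genes called higher and 13.9% called lower at an adjusted p under 0.05. Likewise, for all 5 members the stimulated libraries lay wholly above the starved libraries, which held for 21.3% of all genes.

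Cnn1, the basic calponin of smooth muscle, had 35.3, 37.3 and 20.5 normalized counts in the 3 starved libraries and 162, 170.1 and 171 in the 3 stimulated libraries. The groups were far apart, although the starved libraries rested on only 19 to 43 raw reads and varied more than those of any other member (coefficient of variation 29.6%). The log2FC was 2.41 (SE 0.21, adjusted p 1.1e-11). Cnn2, the neutral calponin of many non-muscle cells, had 9596, 8506 and 8455 normalized counts before and 19301, 19113 and 19546 after stimulation. The stimulated libraries differed by little (coefficient of variation 1.125%) and lay above every starved library, with a log2FC of 1.13 (SE 0.06, adjusted p 3.8e-16). Cnn3, the acidic calponin, which is likewise widely expressed, had 11470.4, 11957 and 11381 normalized counts before and 18090.5, 17953 and 17536.5 after stimulation. It gave the smallest rise of the 5 genes, a log2FC of 0.62 (SE 0.06, adjusted p 1.3e-10), with no overlap between the groups.

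Tagln, also called SM22 alpha, had 1777, 1437 and 1485 normalized counts in the starved libraries and 11605, 11583 and 12933 in the stimulated libraries. It gave the largest rise of the 5 genes, a log2FC of 2.94 (SE 0.07, adjusted p 3.5e-25). Tagln2, the transgelin of non-muscle and blood cells, had 1934, 1759.7 and 1851 normalized counts before and 5201, 5251 and 5661 after stimulation. Its groups were likewise separate, with a log2FC of 1.54 (SE 0.07, adjusted p 4.0e-19).

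**Figure D1:**
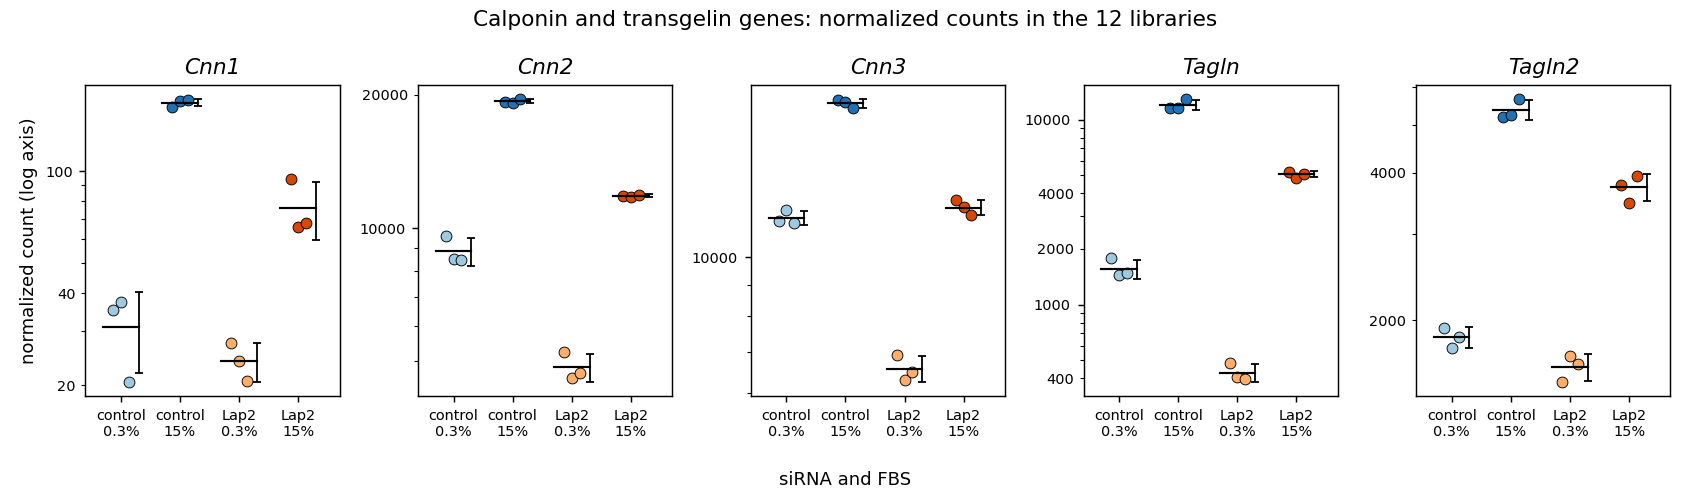
Normalized counts (log axis, with a range of its own for each gene) of the 5 genes in the 12 libraries by siRNA and FBS, with points for libraries, horizontal lines for group means and bars for 1 SD (n = 3). The serum-stimulated control libraries are highest for every gene, and within a serum condition only the serum-starved groups of Cnn1 (20.5 to 37.3 against 20.6 to 27.5) overlap between control and Lap2 siRNA.

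In Lap2-depleted cells all 5 genes also rose on stimulation. The rise was 11.8-fold for Tagln, 3.12-fold for Cnn1, 2.44-fold for Cnn2, 2.33-fold for Tagln2 and 1.83-fold for Cnn3. The 5 called genes compare with 18.3% of all tested genes called higher and 14.9% called lower, and the 5 members without overlap with 22.6% of all genes. These libraries are those of the depletion comparisons too, so the comparisons are not independent of each other.

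In the depleted cells Cnn1 had 27.5, 23.9 and 20.6 normalized counts before and 94.7, 65.7 and 67.6 after stimulation. The lowest stimulated library was more than the highest starved library, at 20 to 30 raw reads in starved and 62 to 82 in stimulated cells, and the log2FC was 1.64 (SE 0.24, adjusted p 6.9e-07). Cnn2 went from 5244, 4577 and 4716 to 11840.1, 11721 and 11892 normalized counts. Every stimulated library lay above every starved one, with a log2FC of 1.29 (SE 0.06, adjusted p 1.8e-17). Cnn3 went from 6930.3, 6297 and 6499 to 12394.5, 12069 and 11721 normalized counts, a log2FC of 0.88 (SE 0.06, adjusted p 5.1e-14). The stimulated depleted cells held Cnn3 at about the level of starved control siRNA treated cells, whose 11381 to 11957 normalized counts overlap theirs.

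Tagln went from 483, 406 and 398 normalized counts in starved to 5227, 4852 and 5116 in stimulated depleted cells. The groups lay far apart, with the largest log2FC of the 5 genes, 3.56 (SE 0.08, adjusted p 2.4e-26). Tagln2 went from 1498, 1695 and 1633 to 3785, 3481 and 3952.5 normalized counts. No libraries overlapped, and the log2FC was 1.22 (SE 0.07, adjusted p 3.9e-16).

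**Figure D2:**
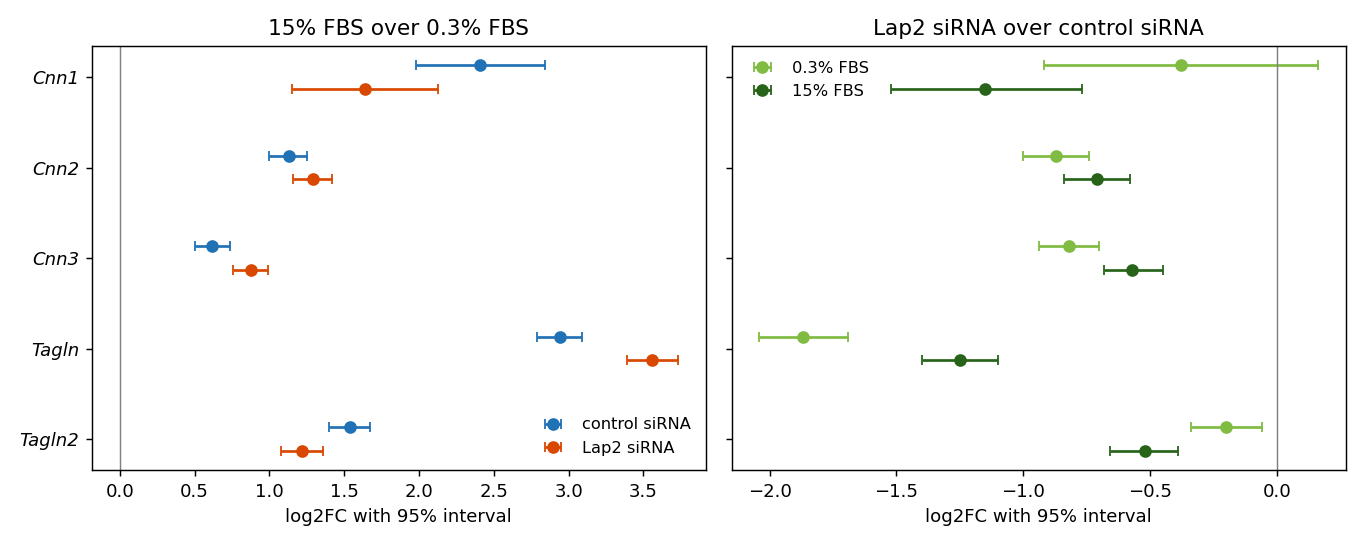
log2FC (points) with 95% intervals (bars) of the 5 genes for serum stimulation with control or Lap2 siRNA (left) and for Lap2 over control siRNA in 0.3% or 15% FBS (right). Tagln lies farthest from 0 in each comparison, from 3.56 for stimulation of depleted cells to -1.87 for depletion in 0.3% FBS, and the interval of Cnn1 crosses 0 for depletion in 0.3% FBS.

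The effect of Lap2 depletion itself was read from the same libraries within each serum condition. In serum-starved cells Tagln fell to 27.4% of the control mean, Cnn2 to 54.7% and Cnn3 to 56.7%, while Tagln2 fell to 87.0%. Cnn1, at 77.4% of the control mean, did not pass the test. The 4 members called lower compare with 18.6% of all tested genes called lower and 17.8% called higher. The depleted libraries lay wholly below the control libraries for 4 members and for 22.1% of all genes.

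In 0.3% FBS the 3 Tagln libraries of depleted cells (398 to 483 normalized counts) lay far below those of control siRNA treated cells (1437 to 1777), with a log2FC of -1.87 (SE 0.09, adjusted p 6.9e-18). The log2FC was -0.87 (SE 0.06, adjusted p 6.1e-13) for Cnn2 and -0.82 (SE 0.06, adjusted p 3.7e-13) for Cnn3. For both, the highest depleted library (5244 and 6930.3) was below the lowest control library (8455 and 11381). Tagln2 gave -0.20 (SE 0.07, adjusted p 0.02), from groups of 1759.7 to 1934 and 1498 to 1695 normalized counts that lay close together without overlapping. This small difference was no longer called with scaling to total counts (log2FC -0.09, adjusted p 0.32), or when control replicate 1 or 3 or depleted replicate 1 or 3 in 0.3% FBS was left out. Its range with single libraries omitted was -0.24 to -0.13. Cnn1 gave -0.38 (95% interval -0.92 to 0.16, adjusted p 0.28), and its groups, of 19 to 43 raw reads per library, overlapped.

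In serum-stimulated cells all 5 genes were lower after Lap2 depletion. The means were 42.1% of the control mean for Tagln, 45.3% for Cnn1, 61.2% for Cnn2, 67.5% for Cnn3 and 69.6% for Tagln2. The 5 members called lower compare with 12.1% of all tested genes called lower and 11.4% called higher, and the 5 without overlap with 18.5% of all genes. Cnn1 fell from 162 to 171 in control libraries to 65.7 to 94.7 normalized counts in depleted libraries, a log2FC of -1.15 (SE 0.18, adjusted p 1.0e-05). The log2FC of Tagln was -1.25 (SE 0.07, adjusted p 1.4e-14), that of Cnn2 -0.71 (SE 0.06, adjusted p 1.5e-10) and that of Cnn3 -0.57 (SE 0.06, adjusted p 3.5e-09). Tagln2, with 5201 to 5661 normalized counts in control libraries and 3481 to 3952.5 in depleted libraries, gave -0.52 (SE 0.07, adjusted p 1.9e-07).

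Whether the serum response of a gene differed between the siRNAs was tested by the interaction, the log2FC of stimulation in Lap2-depleted minus that in control siRNA treated cells. Its sign was not the same for all 5 genes. As a ratio, Tagln rose more in depleted cells (log2FC 2.94 with control and 3.56 with Lap2 siRNA), from a starting level of 27.4% of control. The difference was 0.62 (95% interval 0.39 to 0.85, adjusted p 1.5e-04). In mean normalized counts Tagln gained less in depleted cells, from 429 to 5065, than in control cells, from 1567 to 12040. Cnn3 also rose more as a ratio, by a log2FC of 0.25 (95% interval 0.08 to 0.42, adjusted p 0.036). Its mean gained less in normalized counts, from 6575 to 12062 in depleted and from 11603 to 17860 in control cells. Tagln2 rose less, with a log2FC difference of -0.32 (95% interval -0.51 to -0.13, adjusted p 0.019). Cnn1 gave -0.77 (95% interval -1.42 to -0.11, adjusted p 0.12) and Cnn2 0.16 (95% interval -0.02 to 0.34, adjusted p 0.28), neither of which passed the threshold. The 2 members called with a larger and the 1 with a smaller response compare with 7.09% and 6.51% of all tested genes. The call of Cnn3 was lost with scaling to total counts (adjusted p 0.063) or to the upper quartile (adjusted p 0.055), without the filter on low counts (adjusted p 0.055), and with any library left out other than control replicate 1 or depleted replicate 1 in 0.3% FBS or depleted replicate 3 in 15% FBS, the range over all 12 being 0.20 to 0.27. That of Tagln2 was lost without control replicate 2 in 0.3% FBS (difference -0.29, adjusted p 0.07), without control replicate 3 in 15% FBS (-0.29, adjusted p 0.056) and without depleted replicate 2 in 15% FBS (-0.27, adjusted p 0.088).

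Counts per kb of exon allow levels to be compared between the genes. In the order of the groups, starved depleted cells were lowest and stimulated control siRNA treated cells highest for each gene, with starved control cells second lowest. Adjoining groups overlapped for Cnn1 (starved depleted and starved control) and Cnn3 (starved control and stimulated depleted). The summed level of the 5 genes per kb was 9106 ± 361 (SD, n = 3) in starved control siRNA treated cells and 22432 ± 500.5 after stimulation, against 5132 ± 225 and 13147 ± 253 in depleted cells. The stimulated depleted cells therefore reached 144% of the starved control level, compared with 246% for stimulated control cells.

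Cnn2 and Cnn3 made up most of this sum in every group. Cnn2 held 39.5% ± 1.33 and Cnn3 42.0% ± 2.12 of the per kb sum in starved control cells, and 35.02% ± 0.426 and 26.2% ± 0.982 after stimulation (SD, n = 3). Tagln held 8.64% ± 0.688 before and 27.0% ± 1.12 after stimulation with control siRNA, but 4.195% ± 0.283 before and 19.4% ± 0.369 after stimulation in depleted cells. Tagln2 held 9.75% ± 0.328 and 11.5% ± 0.290 in control and 15.1% ± 1.57 and 13.7% ± 0.706 in depleted cells. Cnn1 never exceeded 0.282% of the sum in a library. In stimulated depleted cells Cnn2 held 36.55% ± 0.52 and Cnn3 30.2% ± 0.843. The order of Cnn2 and Cnn3 in stimulated cells depends on the length used: per kb of the longest transcript, Cnn2 held 29.2% and Cnn3 30.0% of the sum in stimulated control cells, and 30.4% and 34.45% in stimulated depleted cells.

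**Figure D3:**
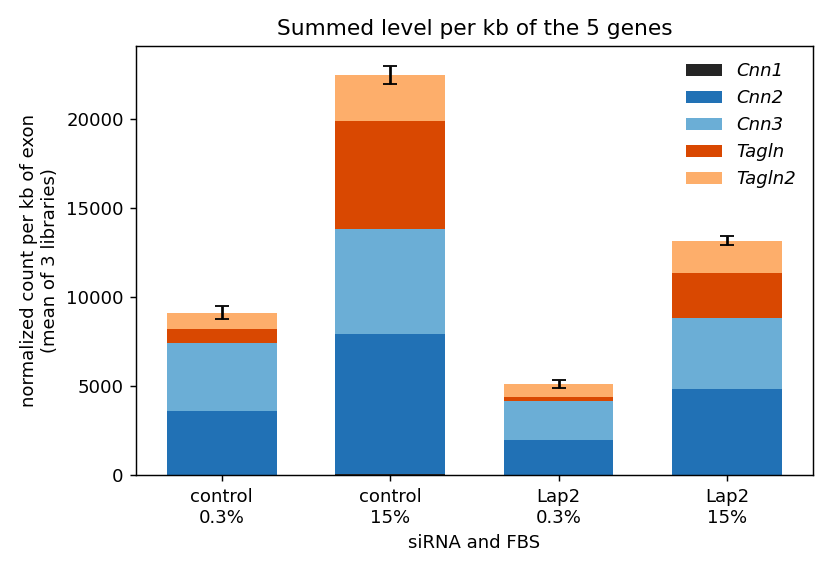
Mean normalized count per kb of exon of the 5 genes, stacked by group (axis from 0), with bars for 1 SD of the summed level (n = 3). The sum is 22432 in stimulated control cells and 13147 in stimulated depleted cells, Tagln grows from a thin band in starved cells to 27.0% and 19.4% of these sums, and Cnn1 is too low to be seen.

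Overlapping genes bear on the Tagln and Cnn3 values, because the strand setting of the counting is not given in the sources used here. The antisense gene Gm48529 overlaps 1241 exon bases of Tagln (62.4%) and had 44 to 590 reads per library, against 386 to 13079 for Tagln. Gm48529 itself rose on stimulation (log2FC 2.64 and 1.89) and was lower after depletion in 15% FBS (-1.13, adjusted p 1.2e-06), with an interaction of -0.75 (adjusted p 0.069). Depletion in 0.3% FBS gave -0.37 for Gm48529 (adjusted p 0.22), with overlapping groups. Pcsk7, a proprotein convertase gene that overlaps 108 exon bases of Tagln (5.4%), rose by 0.85 (adjusted p 4.3e-10) and 0.64 (adjusted p 1.5e-07) on stimulation. After depletion Pcsk7 gave 0.15 (adjusted p 0.17) in 0.3% FBS and -0.05 (adjusted p 0.73) in 15% FBS. For Cnn3, Gm42928 overlaps 538 exon bases on the opposite strand (17.7%) with 17 to 90 reads, and Gm17936, which shares 356 31-base words with Cnn3 (11.4% of its words), had at most 4 reads. On stimulation Gm42928 gave 0.53 with control siRNA (adjusted p 0.094) and 1.18 with Lap2 siRNA (adjusted p 0.0013). Depletion gave -1.30 for Gm42928 in 0.3% FBS (adjusted p 3.3e-04) and -0.65 in 15% FBS (called lower). Gm4815 shares 359 words with Cnn3 (11.5%) and was not among the counted genes. Whether Cnn3 reads were lost through shared words was not tested. Tagln2 shares 31-base words with 1115 other genes, but at most 24 words (1.15%) with any 1 of them.

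The genes whose levels over the 12 libraries were most like each member were named by Pearson's r of log2 CPM among the 10445 genes averaging 100 normalized counts or more, as a description of 4 groups and with no test. For Tagln these were Tpm1, which encodes the main muscle and stress fiber tropomyosin (r = 0.996), Myl9, the regulatory light chain of smooth muscle and non-muscle myosin (r = 0.996), and Csnk1g2, a casein kinase (r = 0.995). For Tagln2 they included Wdr1, a cofactor of cofilin in actin disassembly (r = 0.998), and Akap1, an anchor of protein kinase A at mitochondria (r = 0.996). For Cnn2 they were Trp53inp2 (r = 0.998), Pdcl3 (r = 0.995) and the integrin beta 1 gene Itgb1 (r = 0.992). For Cnn3 they were Stx6 (r = 0.992), the serine protease gene Prss23 (r = 0.992) and Vgll3, a cofactor of TEAD factors (r = 0.992). For Cnn1 they were the natriuretic peptide gene Nppb (r = 0.982), Lurap1l (r = 0.979) and Thy1, a fibroblast surface glycoprotein (r = 0.977). Because these genes were chosen for their likeness over the same libraries, their differences are given as a description. In control siRNA treated cells the log2FC of stimulation ran from 0.43 for Stx6 to 6.62 for Nppb, and that of depletion in 15% FBS from -0.21 for Csnk1g2 to -2.40 for Nppb. Nppb reached the mean of 100 normalized counts through its stimulated groups (means of 868 and 164.5, against 8.42 and 6.66 in starved cells). In 0.3% FBS the log2FC of depletion was -0.51 for Stx6, -1.36 for Prss23 and -1.77 for Vgll3, the neighbours of Cnn3, and -0.32 for Nppb, -0.02 for Lurap1l, -0.12 for Wdr1 and -0.13 for Akap1.

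Genes of smooth muscle contraction other than the members were counted beside them. Of 16 such genes, 12 were called higher on stimulation with control siRNA (median log2FC 1.44, against -0.01 for all tested genes, of which 15.6% were called higher) and 12 in depleted cells (median 1.23, against 0 for all, 18.3% called higher). Acta2, the smooth muscle actin, rose by a log2FC of 2.56 with control and 1.95 with Lap2 siRNA, and Lmod1, an actin nucleator of smooth muscle, by 3.56 and 3.53. After depletion 8 of the 16 were called lower and 2 higher in 0.3% FBS (median -0.61, beside 18.6% and 17.8% of all tested genes), and 11 lower and 1 higher in 15% FBS (median -0.54, beside 12.1% and 11.4%). Acta2 fell by 1.12 and 1.73 and Tpm1 by 0.86 and 0.82 on the log2 scale, while Mylk, the myosin light chain kinase, was higher by 1.40 (adjusted p 5.2e-12) and 0.28 (adjusted p 0.044). Fhl2, a LIM domain cofactor, was higher by 0.91 in 0.3% FBS and fell by 0.33 in 15% FBS. The interaction was called smaller for 5 of the 16 (Acta2 at -0.61 among them) and larger for 1, Synm, beside 6.51% and 7.09% of all tested genes. Summed smooth muscle markers (Smtn, Lmod1 and Synpo2 carry nearly all of the level) were 104.9 to 107.8 CPM in starved and 238 to 265 in stimulated control cells, and 81.7 to 92.9 and 171 to 185 in depleted cells.

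**Figure D4:**
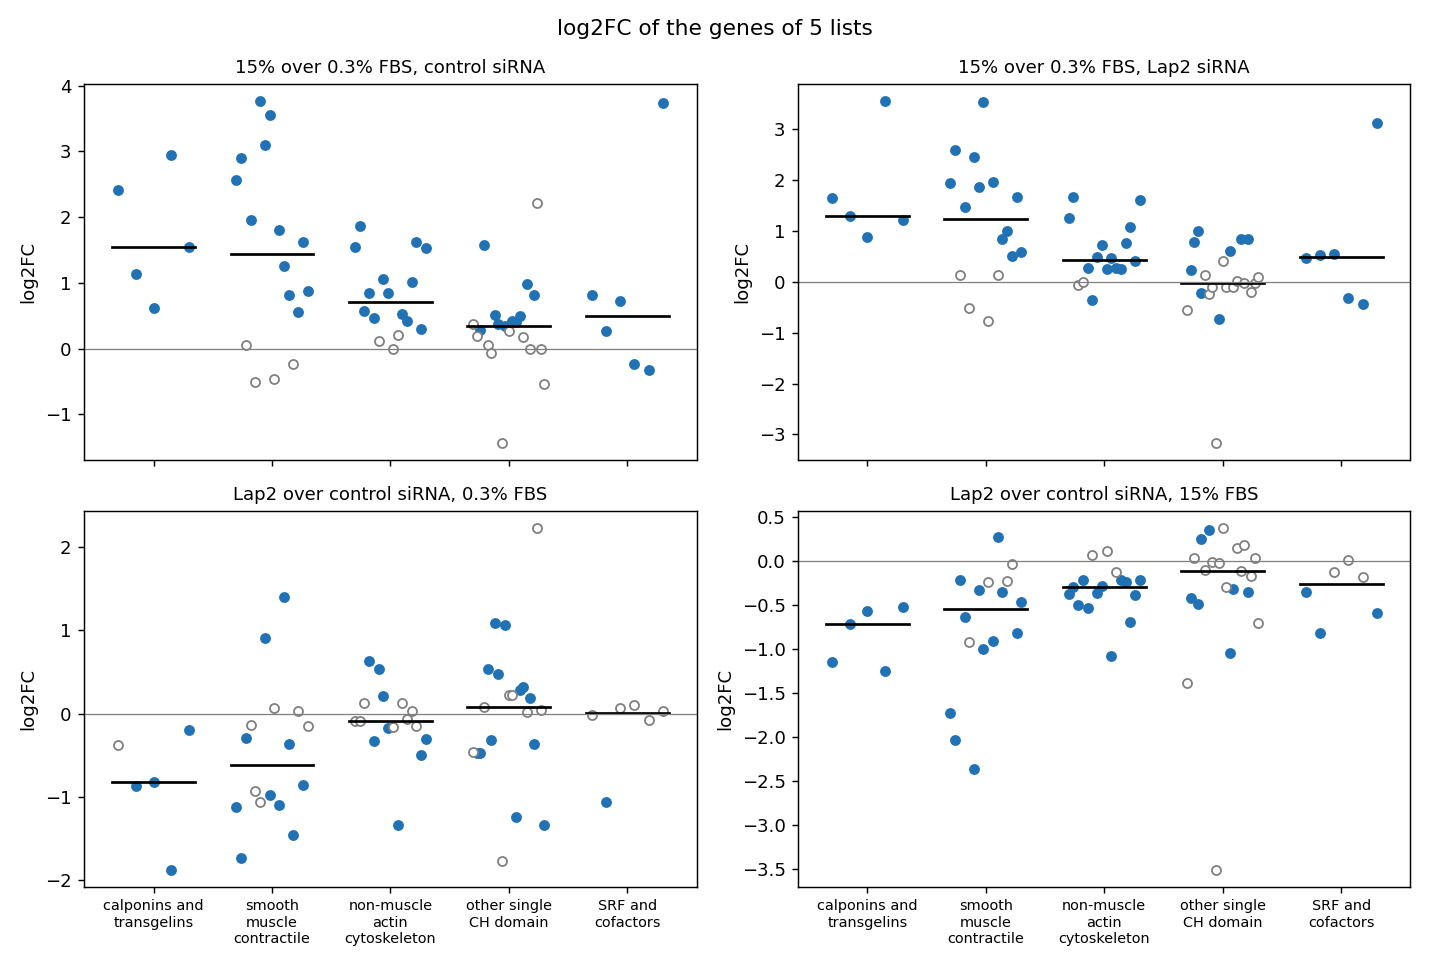
log2FC of each gene of 5 lists in the 4 comparisons (a scale of its own for each panel), with filled points for adjusted p under 0.05, open points for others and a line at the list's median. The median of the 5 calponin and transgelin genes is 1.54 and 1.29 for stimulation and -0.82 and -0.71 for depletion, against 1.44, 1.23, -0.61 and -0.54 for the smooth muscle contractile genes.

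Of 16 non-muscle actin cytoskeleton genes, 13 were called higher on stimulation of control siRNA treated cells (median 0.70, beside 15.6% of all tested genes) and 13 in depleted cells (median 0.44, beside 18.3%), where 1 gene, Myh10, was called lower. Depletion in 0.3% FBS called 5 of them lower and 3 higher (median -0.09, beside 18.6% and 17.8% of all tested genes), and depletion in 15% FBS 13 lower and 0 higher (median -0.29, beside 12.1% and 11.4%). Actb, the cytoplasmic beta actin, gave -0.09 (adjusted p 0.22) in 0.3% FBS and fell by 0.37 on the log2 scale in 15% FBS. Actn4, an actin crosslinker, was higher by 0.63 in 0.3% FBS and fell by 0.21 in 15% FBS, whereas Myl6, the myosin essential light chain, fell by 1.34 and 1.08. The interaction was called smaller for 7 and larger for 1 of these genes, beside 6.51% and 7.09% of all tested genes. Without depleted replicate 1 in 0.3% FBS it was called smaller for 11, beside 10.6% of all tested genes.

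Of 25 other genes with a single CH domain, 21 were tested. Stimulation called 10 of them higher and 0 lower in control siRNA treated cells (median 0.34, beside 15.6% and 13.9% of all tested genes). With scaling to total counts it called 5 higher, beside 8.74% of all tested genes. In depleted cells it called 6 higher and 2 lower (median -0.02, beside 18.3% and 14.9%). Depletion called 7 higher and 6 lower in 0.3% FBS (median 0.08, beside 17.8% and 18.6%) and 2 higher and 5 lower in 15% FBS (median -0.11, beside 11.4% and 12.1%), beside medians of 0.01 and 0.02 for all tested genes. Iqgap3, a scaffold of dividing cells, was higher by 1.06 in starved depleted cells, while Mical1, which oxidizes actin, fell by 1.24, and Smtn, the smoothelin gene, by 0.36.

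Of SRF and its cofactors, 6 of 7 genes were tested, Myocd being too low. Srf itself rose by a log2FC of 3.74 with control and 3.12 with Lap2 siRNA, the interaction being -0.62 (adjusted p 2.2e-06). Srf gave 0.03 (adjusted p 0.77) after depletion in 0.3% FBS and fell by 0.59 in 15% FBS. Mrtfa and Mrtfb, the myocardin-related coactivators, were lower by 0.23 and 0.33 after stimulation of control siRNA treated cells and did not pass the test for depletion in either serum condition (-0.18 to 0.10). Elk3, a ternary complex factor, fell by 1.06 and 0.82 after depletion.

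Total-count scaling shifted the median over all 18668 genes by -0.21 and -0.23 (log2FC) for stimulation with control and Lap2 siRNA, and by 0.11 and 0.09 for depletion in 0.3% and 15% FBS. The calls over all genes moved from 2915 higher and 2597 lower to 1632 and 5847 for stimulation with control siRNA, and from 3420 and 2777 to 1658 and 5951 in depleted cells. For depletion they moved from 3330 and 3480 to 4692 and 2638 in 0.3% FBS, and from 2125 and 2250 to 3471 and 1678 in 15% FBS. With upper-quartile scaling stimulation called 2183 higher and 3878 lower, and 2383 and 3942 in depleted cells. The 5 members kept their direction in every comparison under each scaling.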

How the data were processed

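RNA-seq of 12 NIH 3T3 libraries was analysed. The authors aligned reads of ribosome-depleted directional libraries to mm10 with TopHat2, counted them per gene with HTSeq and deposited the raw counts. A symbol was found for 99.3% of 49671 identifiers. The 18668 genes that exceeded 1 count in 3 or more libraries were tested in R 4.3.3 with edgeR 4.0.16 (TMM, glmQLFit, glmQLFTest, all 4 groups in a single fit) and Benjamini-Hochberg adjustment at 0.05. Contrasts were the serum response for either siRNA, the siRNA effect at 0.3% and at 15% FBS, and the interaction. Normalized counts are counts scaled by TMM library size. The analysis was tested on simulated data. Alternatives were DESeq2 1.42.0, other scalings and filters, fits of 2 groups, TMM without the listed genes, the replicate number as a block, a threshold of 0.01 and each library left out. Same-numbered libraries did not deviate together (r -0.03 to 0.04), so replicate numbers were not used as pairs.

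Genes named are the 5 members, Tmpo, genes of the lists and overlapping genes, and for each member the 3 genes with the highest r (prior count 2), of which 1 is not reported here. The members and lists were chosen with earlier results of these data known. Overlaps and proteins came from GENCODE M21, promoters from RefSeq, and alignment used Biopython 1.88. Proteins were aligned with global BLOSUM62 scoring. Total counts were 18026298 to 26265253 per library, and the SE of the log2FC between groups was 0.06 to 0.09 for the members other than Cnn1.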

Additional observations from a re-analysis of the deposited data

Results flagged for a closer look

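The serum response of 3 of the 5 genes differed with the siRNA by the interaction test, beside 7.09% of all tested genes with a larger and 6.51% with a smaller response. The log2FC of stimulation was larger in depleted cells by 0.62 for Tagln and by 0.25 for Cnn3, and the difference was -0.32 for Tagln2. In each case all 3 stimulated libraries lay above all 3 starved libraries with both siRNAs, so the direction of the response was the same and its size differed. The difference of Cnn3 did not pass in most of the fits with a library left out, and that of Tagln2 in 3 of them.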

How the results depend on the processing

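Of 545 alternative values for the members' log2FC, 522 kept direction and call, 23 kept direction and lost the call, and 0 reversed. The values counted for the threshold of 0.01 are those of the main fit, so their direction could not change and only their calls could. The calls lost were those of Tagln2 for depletion in 0.3% FBS and of Cnn3 and Tagln2 in the interaction, and the cause was not tested. Of the 5 members, 3 were called in the interaction, beside 7.09% of all tested genes called larger and 6.51% smaller. At an adjusted p under 0.01 it was 1, Tagln, beside 4.06% and 4.05%. With a library left out, 1 to 3 members were called in the interaction, with 1 called without control replicate 2 in 0.3% FBS, control replicate 3 in 15% FBS or depleted replicate 2 in 15% FBS. The shares of all tested genes in these fits were 4.85% to 8.3% called larger and 5.01% to 10.6% smaller. Leaving out libraries gave 5 called for serum in both siRNAs, 3 to 4 for depletion in 0.3% FBS and 5 in 15% FBS. Of all tested genes, 13.4% to 18.6% (control) and 15.8% to 18.3% (Lap2 siRNA) were then called higher for serum. For depletion, 15.9% to 19.0% were called lower in 0.3% FBS and 10.2% to 14.7% in 15% FBS. Tmpo on stimulation of control cells gave 0.17, and -0.04 with total counts.

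With the replicate block, the same 5, 5, 4, 5 and 3 members were called, and Tagln gave 2.95 for serum with control siRNA. Of all tested genes the block called 15.6% and 18.1% higher for serum, and 18.6% and 11.95% lower for depletion. In the interaction it called 7.08% larger and 6.6% smaller. The groups share numbers only, and no member's call changed. Cnn1 had 19 to 183 raw reads per library, and each group had 3 libraries.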
